A study of Mus musculus with 27 samples.

Results

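Mouse embryoid bodies grown for 5 days from an induced pluripotent stem cell line made with 4 reprogramming factors (19BL, called 4F) were compared with those from a line made with 3 factors (H9, called 3F). The arrays were taken by their labelled line and day: 3 of 4F and 3 of 3F at day 5, 6 of the 27 Affymetrix arrays in the study. The other arrays hold both lines at day 0 and day 11 and the R1 embryonic stem cell line at all 3 days, 3 arrays in each group. All cells were kept on mitomycin-treated feeder cells with leukemia inhibitory factor (LIF) at day 0, and embryoid bodies were grown without LIF in medium with 20% fetal bovine serum. Each line stands for its factor number alone, so line and number of factors cannot be told apart, and the factors are not named in the labels. This H9 is a mouse line and not the human line of that name. The arrays of a group are labelled biological replicates, and no label says which cultures they came from. The p values and standard errors therefore measure the spread between arrays within groups, pooled for each gene over all 27 arrays. They do not measure the spread of the 6 compared arrays alone, and a wide spread within 4F at day 5 counts only in part.

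An embryoid body is an aggregate of pluripotent cells that differentiates when LIF is withdrawn. Its cells first leave the naive state for one like the post-implantation epiblast, and many then pass through a state like the primitive streak, where Nodal, Wnt and BMP signals act and the precursors of mesoderm and endoderm leave the epithelium. Mesoderm formed in this way gives rise to blood, endothelium, smooth muscle and heart muscle in culture.

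At day 5 the 4F bodies had higher levels than 3F of 16 of 25 pluripotency genes, 7 of 14 epiblast genes and 5 of 16 germ line genes. They had lower levels of 14 of 17 genes of lateral mesoderm, 9 of 23 cardiac transcription factors, 6 of 15 definitive endoderm genes, 11 of 22 BMP pathway genes and 10 of 19 imprinted genes. Levels are log2 signals, 1 probe set per gene, and a difference is 4F minus 3F on that scale ± the fit's standard error, from limma. Genes counted as called passed an adjusted p of 0.05 and differed by 2-fold or more. Of 18193 genes 1360 were called (7.48%), 529 higher in 4F (2.91%) and 831 lower (4.57%). The arrays of the lines did not overlap for 8264 genes (45.4%). The 15 largest differences each way were taken from called genes without overlap, so for them separation is a condition of the choice. In bulk samples, fewer cells of a type and less RNA per cell cannot be told apart.

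One 4F array, replicate 3, stood apart from the others of its group. Replicates 1 and 2 of 4F had 0 genes that differed by 2-fold or more between them, while replicate 3 differed so from them in 639 and 641 genes. Pairs of 3F arrays differed so in 73 to 249 genes and pairs of R1 arrays at day 5 in 85 to 693, the most where R1 replicate 3 was in the pair. Across genes replicate 3 correlated with the other 4F arrays at r = 0.984 and 0.985 and with the 3F arrays at 0.979 to 0.987. With R1 replicates 1, 2 and 3 it correlated at 0.991, 0.985 and 0.974. All these values share the probe effects of the platform. Without replicate 3 the calls came to 1797 (9.88%), 698 higher (3.84%) and 1099 lower (6.04%), so results are given with and without it. The Y-linked gene Eif2s3y was at 8.03 in replicate 3, 6.03 and 5.22 in the other 4F arrays and 10.38 to 10.5 in 3F. RNA quality also differed: the 3′ minus 5′ signal of the Actb and Gapdh control probe sets, which grows as RNA degrades, was 1.62 ± 0.08 in 4F (SD, n = 3; 1.55 to 1.71) and 1.1 ± 0.08 in 3F (1.01 to 1.17), without overlap, and 1.66 ± 0.34 in R1. With this index as a covariate 522 genes were called higher and 498 lower. Its part in the differences was not tested, and counts with the covariate are given where they differ by over 1.5 times.

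The labels were checked against markers. In 4F Pou5f1, which encodes the core pluripotency factor Oct4, had levels of 12.62, 12.51 and 11.9, against 12.52 to 12.98 in the same line at day 0. In 3F its levels were 10.74, 9.63 and 9.75, against 12.5 to 12.86 at day 0. Brachyury, the usual streak marker, had no probe set with a single symbol and was not analysed here. The 13 leukocyte genes measured had mean levels of 6.4 to 6.6 in 4F and 6.22 to 6.4 in 3F, and 0 were called by limma (0 at an unadjusted p under 0.05, 0 with treat). The 17 fibroblast and feeder genes had mean levels of 6.13 to 6.38 in 4F and 6.62 to 7.25 in 3F.

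**Figure D1:**
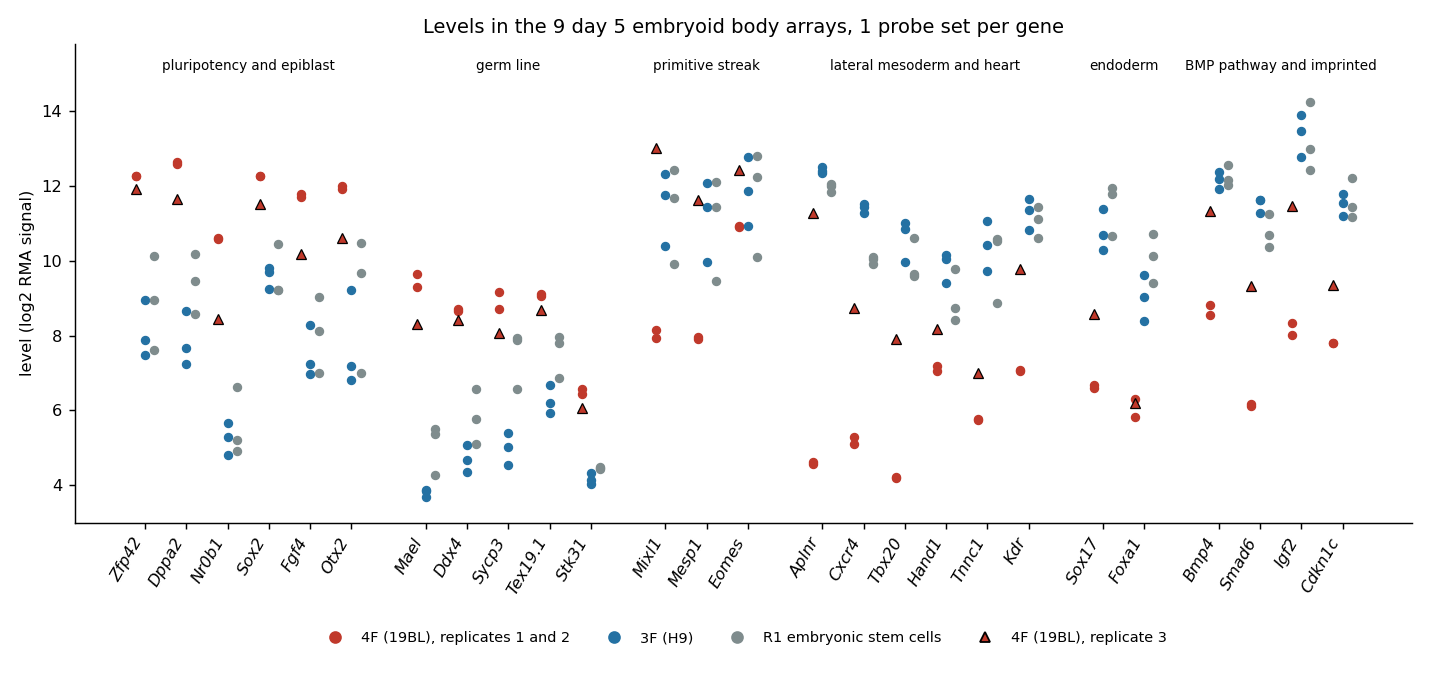
Levels (log2 RMA signal, vertical axis) of 26 genes in each day 5 array: 4F in red, with replicate 3 as a triangle, 3F in blue and R1 in grey. Pluripotency and germ line genes were highest in the 4F arrays, mesoderm genes such as Aplnr (4.57 and 4.63 in 4F replicates 1 and 2, 11.27 in replicate 3) were low in replicates 1 and 2 and higher in replicate 3, and for Mixl1 and Mesp1 replicate 3 lay among or above the 3F arrays.

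Genes of naive and core pluripotency were higher in 4F. Of 25 measured, 16 were called higher and 1 lower, with a median difference of 2.23 against 0.03 over all genes, and without replicate 3 the counts were 17 and 1 (median 2.36). Zfp42 (Rex1), a zinc-finger protein of naive cells, had levels of 12.27, 12.26 and 11.92 in 4F and 8.95, 7.88 and 7.47 in 3F. Every 4F array lay above every 3F array, and replicate 3 lay close to the other two. The difference was 4.05 ± 0.47 (adjusted p = 4.47e-06), a 16.6-fold difference in signal. Dppa2, a chromatin protein of early embryos and germ cells, had levels of 12.58, 12.64 and 11.66 in 4F and 8.66, 7.66 and 7.23 in 3F, a difference of 4.44 ± 0.39 (adjusted p = 1.17e-07). For Nr0b1 (Dax1), an orphan nuclear receptor of the pluripotency network, levels were 10.59, 10.61 and 8.45 in 4F and 5.65, 5.29 and 4.82 in 3F, so that replicate 3 lay about midway and the difference was 4.63 ± 0.52 (adjusted p = 3.56e-06). Fgf4, the growth factor that pushes naive cells towards differentiation, had a difference of 3.72 ± 0.5 (adjusted p = 2.05e-05), and 2.1 with the mean of its probe sets.

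The core factors were higher as well, by smaller amounts. Sox2, the partner of Oct4, had levels of 12.27, 12.28 and 11.51 in 4F and 9.69, 9.81 and 9.24 in 3F. The lines did not overlap, and the difference was 2.44 ± 0.44 (adjusted p = 0.00042). Pou5f1 was higher by 2.3 ± 0.52 (adjusted p = 0.00299), but by 1.03 with the RNA quality index as covariate, where its call was lost. Nanog, which stabilises the naive state, had levels of 11.24, 11.41 and 11.28 in 4F and 10.26, 8.99 and 9.83 in 3F, a difference of 1.62 ± 0.48 (adjusted p = 0.0214). Its call was lost with the covariate (1.15) and without 3F replicate 2 (1.26), 4F replicate 1 (1.65) or 4F replicate 2 (1.57). Klf4, a Krüppel-like factor used in reprogramming, was higher by 1.47 ± 0.31 (adjusted p = 0.0019), but by 0.92 with the mean of its probe sets, which ended its call. Eras, a Ras protein of embryonic stem cells, was higher by 3.73 ± 0.71 (adjusted p = 0.000725), or 2.38 with the covariate. The 1 member called lower was Tbx3, a T-box factor of naive cells that is also made in mesoderm and endoderm, named after its value was seen. Levels were 7.14, 7.39 and 9.96 in 4F and 10.42, 10.25 and 10.38 in 3F, with replicate 3 near 3F. The difference of -2.19 ± 0.48 (adjusted p = 0.00227) lost its call with only the compared arrays fitted and was -1.16 with the mean of its probe sets.

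The promoter of Zfp42 is shown because its octamer, the sequence bound by Oct4 and other POU factors, lies within 250 bases of the start site. The bases are those before the RefSeq start (GRCm38.p6, chr8:43307010-43307259, minus strand, 5′ to 3′ towards the gene), with the octamer, ATGCAAAT or on the other strand ATTTGCAT, in capitals.
Zfp42: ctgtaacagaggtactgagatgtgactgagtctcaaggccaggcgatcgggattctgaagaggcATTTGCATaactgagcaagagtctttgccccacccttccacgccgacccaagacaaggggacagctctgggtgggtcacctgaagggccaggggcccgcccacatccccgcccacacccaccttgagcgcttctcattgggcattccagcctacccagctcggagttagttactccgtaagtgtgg
The octamer on either strand was in 18 of the 411 genes called higher that have a promoter in the RefSeq table (4.38%), in 10 of the 678 called lower (1.47%) and in 227 of 14452 genes of the array (1.57%). A GATA motif (AGATAA or TTATCT) was in 6.81% of the genes called higher, 7.37% of those called lower and 8.79% of genes of the array, and a T-box motif (TCACACCT or AGGTGTGA) in 0.73%, 0.74% and 1.11%. These shares are a description of the letters, and the motifs, an E box among them, were chosen with the results known.

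Genes of the primed epiblast were higher in part. Of 14 measured, 7 were called higher and 1 lower (median 0.89), 8 and 0 without replicate 3. The count of higher genes fell to 4 without 4F replicate 1 or without 4F replicate 2. Otx2, a homeodomain factor of the epiblast and forebrain, had levels of 12.01, 11.91 and 10.61 in 4F and 9.23, 6.8 and 7.19 in 3F. The 4F arrays were all above the 3F arrays, of which replicate 1 was the highest, and the difference was 3.77 ± 0.69 (adjusted p = 0.000547), or 2.47 with the RNA quality covariate. Pou3f1 (Oct6), a POU factor of the primed state, was higher by 3.17 ± 0.48 (adjusted p = 7.01e-05). Sfrp2, a secreted Wnt antagonist, was higher by 1.72 ± 0.35 (adjusted p = 0.00139), and Epha2, an ephrin receptor, by 1.56 ± 0.31 (adjusted p = 0.00108). Fgf5, the classical epiblast growth factor, had levels of 10.43, 10.56 and 9.09 in 4F and 9.3, 6.59 and 6.82 in 3F, where 4F replicate 3 lay below 3F replicate 1. Its difference of 2.46 ± 0.67 (adjusted p = 0.0128) lost its call with the covariate (1.27) and without 3F replicate 2 (1.97), 3F replicate 3 (2.08), 4F replicate 1 (2.25) or 4F replicate 2 (2.19), and was 1.57 with the mean of its probe sets. The gene called lower was Car4, a carbonic anhydrase (-1.31 ± 0.44, adjusted p = 0.0422), named after its value was seen, and its call was lost without each array but 3F replicate 1, with quantile normalization and with cyclic loess (differences of -1.52 to -0.97, adjusted p of 0.0549 to 0.203). Among DNA methylation enzymes 2 of 8 were called higher: Dnmt3l, the cofactor of de novo methylation in germ cells, by 2.66 ± 0.43 (adjusted p = 0.000134), and Dnmt3a, a de novo methyltransferase, by 1.11 ± 0.27 (adjusted p = 0.00651). The call of Dnmt3a was lost without 4F replicate 1 (0.96) or replicate 2 (0.92) and with the mean of its probe sets (0.7), which ranged from -0.32 to 1.45. Dnmt3b had levels of 13.78, 13.73 and 13.08 in 4F and 13.37, 12.8 and 12.91 in 3F, a difference of 0.5 ± 0.33 (adjusted p = 0.366), not called.

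Germ line genes were higher in part. Of 16 measured, 5 were called higher and 1 lower (median 0.61), with the same counts without replicate 3. Mael, a piRNA pathway protein of germ cells, had levels of 9.66, 9.3 and 8.32 in 4F and 3.86, 3.85 and 3.69 in 3F. In 3F it lay near the bottom of the scale in every array, and each 4F array was far above. The fitted difference was 5.29 ± 0.33 (adjusted p = 6.15e-10), and no fold is given against levels so near the table's lowest value of 3.0. Ddx4 (Vasa), the RNA helicase that marks germ cells, had levels of 8.72, 8.66 and 8.43 in 4F and 5.08, 4.35 and 4.67 in 3F, a difference of 3.9 ± 0.28 (adjusted p = 6.17e-09). Sycp3, a protein of the synaptonemal complex of meiotic chromosomes, had levels of 9.16, 8.71 and 8.07 in 4F and 5.39, 4.55 and 5.03 in 3F, a difference of 3.66 ± 0.43 (adjusted p = 4.47e-06). Replicate 3 was the lowest 4F array for each of these genes but stayed far above 3F. Tex19.1, a protein of germ cells and placenta that restrains retrotransposons, was higher by 2.69 ± 0.27 (adjusted p = 5.62e-07), and Stk31, a testis kinase-like protein, by 2.2 ± 0.2 (adjusted p = 1.17e-07). Outside the list, Dmrt1, a transcription factor of the gonad, was higher by 3.82 ± 0.32 (adjusted p = 5.31e-08), Meioc, a meiotic entry factor, by 3.96 ± 0.36 (adjusted p = 1.47e-07), Mageb16 by 4.0 ± 0.45 (adjusted p = 3.11e-06) and Trap1a by 4.1 ± 0.35 (adjusted p = 6.79e-08); the last pair are X-linked genes of testis and tumours. The member called lower was Prdm1 (Blimp1), a repressor needed for germ cell specification and also made in endoderm, named after its value was seen (-1.46 ± 0.41, adjusted p = 0.0149). Its call was lost with only the compared arrays fitted and without 3F replicate 1 (-1.15), 4F replicate 1 (-1.09) or 4F replicate 2 (-1.31).

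Promoters of 4 of the 5 germ line genes called higher hold an E box, the sequence CACGTG read the same on both strands and bound by factors of the Myc and Max family. They are shown because these members were called higher and hold the motif, and Tex19.1, the other member called higher, is not shown. Each is given as the 250 bases before the RefSeq start site (GRCm38.p6), 5′ to 3′ towards the gene, with each E box in capitals. Mael lies at chr1:166238745-166238994 (minus strand), Ddx4 at chr13:112652311-112652560 (minus), Sycp3 at chr10:88459337-88459586 (plus) and Stk31 at chr6:49395289-49395538 (plus, 1 of 2 start sites listed).
Mael: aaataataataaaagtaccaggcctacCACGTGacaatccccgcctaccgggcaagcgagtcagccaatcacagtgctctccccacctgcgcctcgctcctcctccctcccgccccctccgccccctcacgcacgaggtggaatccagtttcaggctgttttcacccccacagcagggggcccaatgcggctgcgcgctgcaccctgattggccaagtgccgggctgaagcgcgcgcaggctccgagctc
Ddx4: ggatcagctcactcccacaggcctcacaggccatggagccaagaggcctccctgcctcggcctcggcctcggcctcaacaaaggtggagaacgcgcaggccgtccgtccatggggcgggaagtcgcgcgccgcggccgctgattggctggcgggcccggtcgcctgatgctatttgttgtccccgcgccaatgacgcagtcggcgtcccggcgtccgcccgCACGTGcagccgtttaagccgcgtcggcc
Sycp3: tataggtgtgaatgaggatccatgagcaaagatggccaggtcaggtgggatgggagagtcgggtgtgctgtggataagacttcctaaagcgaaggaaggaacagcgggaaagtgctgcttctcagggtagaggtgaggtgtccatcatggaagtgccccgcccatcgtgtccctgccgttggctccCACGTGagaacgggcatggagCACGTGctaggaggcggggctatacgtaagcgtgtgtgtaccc
Stk31: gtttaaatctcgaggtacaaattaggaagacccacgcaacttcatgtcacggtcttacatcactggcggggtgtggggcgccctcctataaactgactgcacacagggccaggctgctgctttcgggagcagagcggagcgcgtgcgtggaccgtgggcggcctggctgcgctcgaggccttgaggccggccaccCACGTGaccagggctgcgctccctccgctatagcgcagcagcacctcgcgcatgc
The E box begins 223 bases before the start in Mael, 29 in Ddx4 and 55 in Stk31, and the farther of the 2 in Sycp3 begins 64 bases before it. The windows hold 18, 31, 12 and 21 CpG dinucleotides in Mael, Ddx4, Sycp3 and Stk31. An E box was in 8 of the 13 measured list members that have a promoter entry (61.54%). The share was 58 of 411 among genes called higher (14.11%), 56 of 678 among those called lower (8.26%), 1262 of 14452 among genes of the array (8.73%) and 6.02% of all 32851 promoters of the table. The 5 germ line genes called higher, 4 of them with an E box, count in both shares, which are therefore not independent.

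Among the 15 genes with the largest differences in each direction, taken only from called genes without overlap, several lie outside the gene lists. Mcf2, a guanine nucleotide exchange factor, had levels of 9.07, 9.2 and 7.56 in 4F and 4.97, 4.5 and 3.95 in 3F, a difference of 4.14 ± 0.45 (adjusted p = 1.85e-06). Ugt8a, an enzyme of galactosylceramide synthesis, was higher by 3.97 ± 0.45 (adjusted p = 3.61e-06, 2.08 with the mean of its probe sets). Zfp936, a zinc-finger protein, was higher by 3.88 ± 0.24 (adjusted p = 6.15e-10), and Ccnb1ip1 (Hei10), a regulator of meiotic crossovers, by 3.74 ± 0.48 (adjusted p = 1.34e-05). Replicate 3 was the lowest 4F array for these genes. On the lower side, Tdo2, which breaks down tryptophan, had levels of 3.98, 3.98 and 4.6 in 4F and 7.57, 9.87 and 7.93 in 3F, a difference of -4.27 ± 0.74 (adjusted p = 0.000319, -1.78 with the mean of its probe sets). Capn6, a calpain of placenta and embryonic muscle, was lower by 4.26 ± 0.44 (adjusted p = 1.1e-06), Stard8 by 4.24 ± 0.48 (adjusted p = 3.48e-06), and Colec11, a secreted collectin, by 4.02 ± 0.66 (adjusted p = 0.000181, -2.49 with the mean of its probe sets). Colec11 in replicate 3 (4.37) lay with the other 4F arrays (4.21 and 4.11), whereas Stard8 in replicate 3 (9.94) lay midway between them (7.18 and 7.49) and 3F (12.05 to 12.84).

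**Figure D2:**
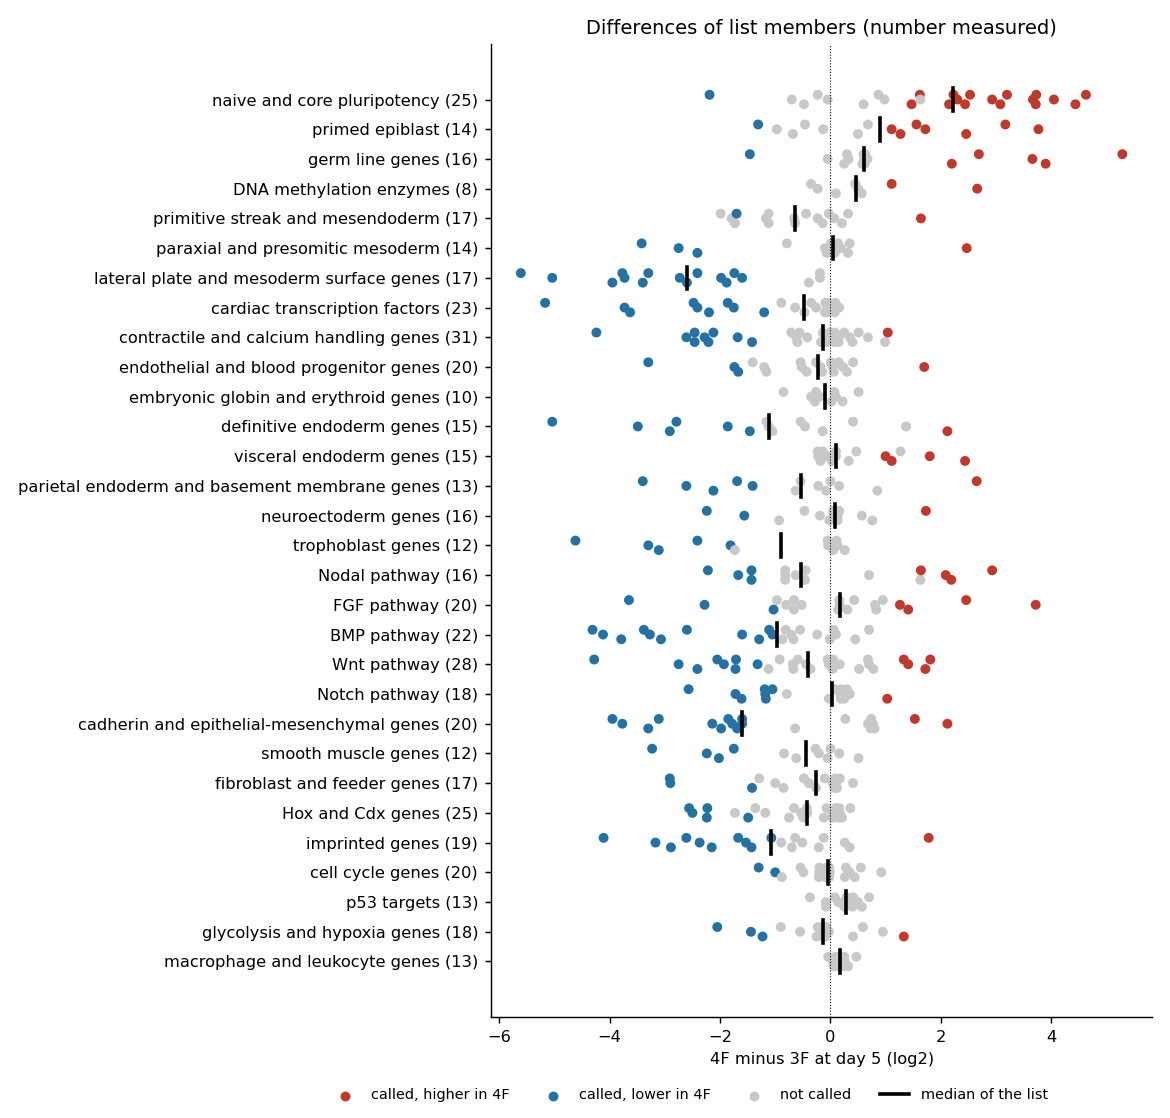
Difference 4F minus 3F at day 5 (log2, horizontal axis) of every measured member of 30 gene lists, with the number measured in parentheses; red and blue points are called higher and lower, grey points are not called, and black bars are list medians. The medians of the pluripotency list (2.23) and the lateral plate list (-2.6) lie farthest from 0.

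Genes of the primitive streak gave a result that turned on replicate 3. Of 17 measured, 1 was called higher and 1 lower with all arrays (median -0.64), and 1 and 8 without that array (median -0.94), and 0 and 1, Wnt3, with the RNA quality covariate. The lower count was 0 without 4F replicate 1 or replicate 2, and 7 with array weights. Mixl1, a homeobox gene of the streak, had levels of 7.94, 8.15 and 13.02 in 4F and 12.33, 10.39 and 11.75 in 3F. Replicates 1 and 2 of 4F lay below every 3F array and replicate 3 above every one. The difference was -1.79 ± 0.86 (adjusted p = 0.178) with all arrays and -3.44 (adjusted p = 0.0001) without replicate 3. Mesp1, which marks the earliest mesoderm and heart precursors, had levels of 7.95, 7.92 and 11.64 in 4F and 12.08, 9.96 and 11.44 in 3F, with the same pattern except that replicate 3 stood among the 3F arrays. Its difference was -1.99 ± 0.71 (adjusted p = 0.0591), not called, and -3.22 (adjusted p = 0.000185) without replicate 3; it was also called without 3F replicate 2 (-2.59) and with dim genes left out. The gene called lower with all arrays was Evx1, a homeobox gene of the late streak, with levels of 7.93, 8.08 and 11.38 in 4F and 11.26, 10.09 and 11.13 in 3F, where replicate 3 lay above every 3F array. Its difference of -1.7 ± 0.57 (adjusted p = 0.0421) lost its call without 3F replicate 1 (-1.48), 3F replicate 3 (-1.55), 4F replicate 1 (-1.1) or 4F replicate 2 (-1.17), with quantile normalization (-1.59), with the covariate (-1.98) and with only the compared arrays fitted, and was -2.82 without replicate 3. The one called higher was Nodal, given with its pathway. Fgf8 and Wnt3, growth factors made in the streak, and Cdx2, a caudal homeobox factor, turned on replicate 3 in the same way. Without replicate 3 they were called lower, with differences of -1.6, -1.8 and -2.88, and with it their differences were -0.66 ± 0.55 (adjusted p = 0.51), -1.12 ± 0.41 (adjusted p = 0.0617) and -1.73 ± 0.6 (adjusted p = 0.0511), none of them called. Cdx2 was also called without 3F replicate 1 (-2.05) and under 5 other settings, and Wnt3 under 4. Eomes, the T-box factor needed for streak exit, had levels of 10.92, 10.9 and 12.44 in 4F and 12.79, 10.93 and 11.86 in 3F, where replicates 1 and 2 were level with the lowest 3F array, and was not called (-0.44 ± 0.6, adjusted p = 0.722). Goosecoid (Gsc), an organiser factor, had levels of 5.13, 5.14 and 7.34 in 4F and 6.64, 5.48 and 5.9 in 3F and was not called (-0.14 ± 0.48, adjusted p = 0.908).

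Where replicate 3 lay between its group and 3F differed from list to list. On a scale where 0 is the mean of the other two 4F arrays and 1 the mean of 3F, its median position was 0.42 over the 698 genes called higher without it and 0.49 over the 1099 called lower. Streak members called without it (9) had a median of 1.2, and 8 of them lay beyond the 3F mean. Wnt pathway members (17) had 0.97, Hox and Cdx genes (8) 0.8, BMP members (13) and endothelial genes (7) 0.65, lateral plate genes (14) 0.63 and cardiac transcription factors (9) 0.58. At the other end stood contractile genes (9) at 0.29, pluripotency genes (18) at 0.25 and germ line genes (6) at 0.2. Genes that differed between the lines in the same direction at both day 0 and day 11, chosen on days 0 and 11 and placed only where the day 5 gap was at least 2-fold, had medians of 0.22 (38 higher) and 0.34 (29 lower). Genes called without replicate 3 were chosen on the same arrays that set 0 and 1, and the 2-fold gap was set on those arrays too. Such a choice tends by itself to place the array left out above 0. These positions describe 1 array and carry no test.

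**Figure D3:**
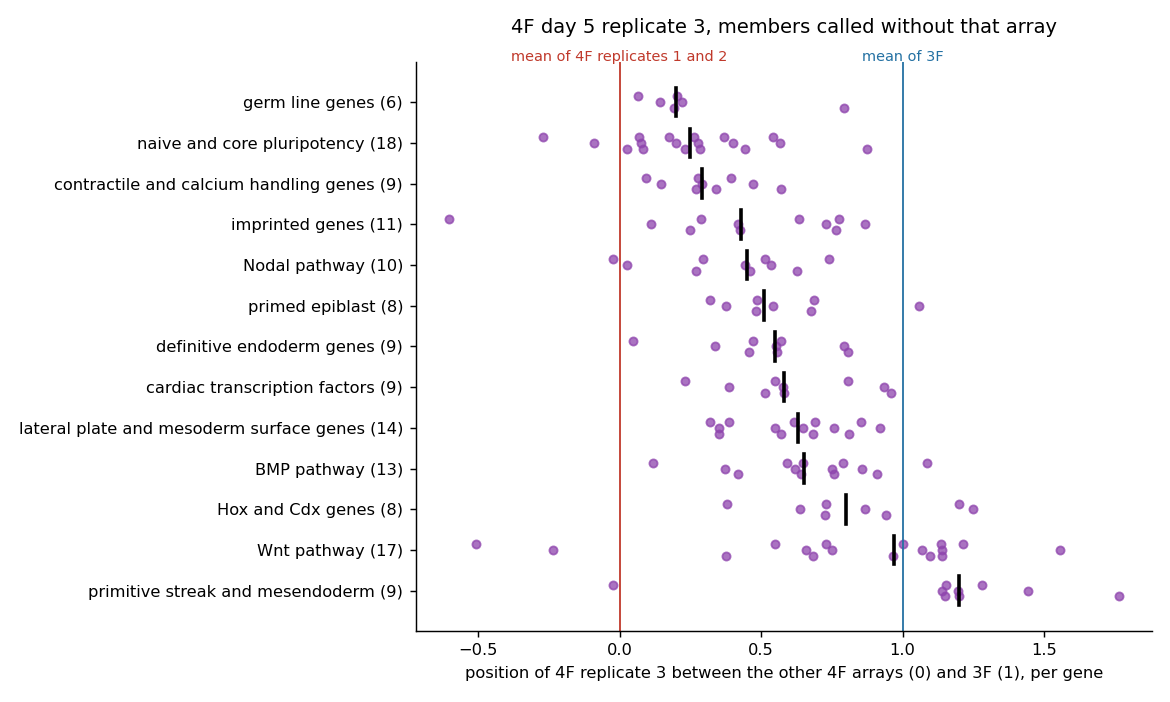
Position of 4F replicate 3 per gene between the mean of 4F replicates 1 and 2 (0, red line) and the mean of 3F (1, blue line), for list members called without that array; black bars are medians and numbers in parentheses count the members. Streak members centre at 1.2 and germ line members at 0.2.

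Lateral plate and mesodermal surface genes were lower in 4F almost throughout. Of 17 measured, 14 were called lower with or without replicate 3, with medians of -2.6 and -3.48. Aplnr, the apelin receptor of migrating mesoderm and heart precursors, had levels of 4.57, 4.63 and 11.27 in 4F and 12.52, 12.41 and 12.36 in 3F. Replicates 1 and 2 of 4F were at the level of undifferentiated 4F cells (4.21 to 4.57), replicate 3 was high, and 3F was higher still. The difference was -5.61 ± 1.0 (adjusted p = 0.000392), or -7.84 (adjusted p = 1.01e-11) without replicate 3. Cxcr4, the chemokine receptor of mesoderm and definitive endoderm, had levels of 5.1, 5.28 and 8.73 in 4F and 11.43, 11.28 and 11.51 in 3F, a difference of -5.04 ± 0.63 (adjusted p = 9.7e-06). Replicate 3 again lay between, nearer to 3F. Cdh11, a cadherin of mesenchyme, was lower by 3.95 ± 0.69 (adjusted p = 0.000329), and Snai2 (Slug), a repressor of epithelial genes, by 3.77 ± 0.49 (adjusted p = 1.33e-05). Nrp1, the neuropilin co-receptor of VEGF and semaphorins, was lower by 4.73 ± 0.74 (adjusted p = 0.0001), and Pmp22, a membrane protein of myelin and epithelia, by 4.76 ± 0.71 (adjusted p = 6.84e-05); both are outside the list. Pdgfra, a receptor of mesoderm and primitive endoderm, had levels of 6.35, 6.4 and 10.89 in 4F and 11.19, 11.48 and 11.16 in 3F, with replicate 3 just under 3F. Its difference of -3.4 ± 0.71 (adjusted p = 0.00175) lost its call with only the compared arrays fitted and with the RNA quality covariate (-2.5), and was -2.09 with the mean of its probe sets.

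Of 23 cardiac transcription factors 9 were called lower with or without replicate 3 (median -0.47). Tbx20, a T-box factor of the heart fields, had levels of 4.19, 4.23 and 7.9 in 4F and 9.98, 11.0 and 10.84 in 3F. Replicates 1 and 2 of 4F lay at the bottom, replicate 3 midway and 3F on top, and the difference was -5.17 ± 0.66 (adjusted p = 1.11e-05), or -2.78 with the mean of its probe sets. Hand1, a factor of left ventricle, extraembryonic mesoderm and placenta, had levels of 7.18, 7.05 and 8.18 in 4F and 9.42, 10.16 and 10.06 in 3F, a difference of -2.41 ± 0.32 (adjusted p = 1.89e-05). Tbx2, which patterns the atrioventricular canal, was lower by 3.63 ± 0.4 (adjusted p = 2.57e-06). Hand2, which acts in the right ventricle, was lower by 3.73 ± 0.45 (adjusted p = 6.1e-06) on its brightest probe set, but its probe sets ranged from -3.73 to 0.14 and their mean gave -1.27. Gata4, a zinc-finger factor of heart and endoderm, was lower by 2.48 ± 0.41 (adjusted p = 0.000174, -1.59 with the mean of its probe sets), and Gata6 by 1.86 ± 0.37 (adjusted p = 0.00104), where the mean of its probe sets ended the call (-0.86; range -1.86 to 0.34). Isl1, of the second heart field, had levels of 5.98, 6.0 and 7.69 in 4F and 7.5, 7.62 and 8.16 in 3F, with replicate 3 inside the 3F range. Its difference of -1.2 ± 0.37 (adjusted p = 0.0267) lost its call with only the compared arrays fitted and without 3F replicate 2 (-1.27), 3F replicate 3 (-1.0), 4F replicate 1 (-0.91) or 4F replicate 2 (-0.93), and was -1.83 with the mean of its probe sets. Nkx2-5, Mef2c and Tbx5, factors of committed heart muscle, were not called. Their levels in the 6 arrays were 6.87 to 7.32, 6.68 to 7.12 and 6.15 to 6.49, with differences of -0.03 ± 0.25 (adjusted p = 0.968), -0.09 ± 0.32 (adjusted p = 0.907) and 0.16 ± 0.15 (adjusted p = 0.584).

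Genes of the contractile apparatus were lower for some embryonic isoforms. Of 31 measured, 9 were called lower and 1 higher (8 and 1 without replicate 3), with a median of -0.14. Tnnc1, the troponin C of heart and slow muscle, had levels of 5.76, 5.73 and 7.01 in 4F and 9.74, 11.06 and 10.42 in 3F, and the difference was -4.24 ± 0.52 (adjusted p = 7.27e-06). Replicate 3 was the highest 4F array and lay well below 3F. Tpm1, a tropomyosin, was lower by 2.61 ± 0.37 (adjusted p = 3.82e-05), and Tnni1, the slow troponin I of embryonic heart, by 2.46 ± 0.45 (adjusted p = 0.000512). Tnnt2, cardiac troponin T, had levels of 4.45, 4.37 and 4.76 in 4F and 5.47, 8.26 and 6.68 in 3F, with 3F replicate 2 far above the other two. Its difference of -2.28 ± 0.65 (adjusted p = 0.0174) lost its call without 3F replicate 2 (-1.55), 4F replicate 1 (-2.24) or 4F replicate 2 (-2.2) and with the covariate (-0.91); its probe sets ranged from -2.28 to 0.23, and their mean gave -1.36. Actc1, the cardiac actin, had levels of 7.36, 7.41 and 9.12 in 4F and 10.32, 10.06 and 10.88 in 3F, a difference of -2.46 ± 0.76 (adjusted p = 0.0263). That call was lost without each array other than 4F replicate 3 (differences -2.64 to -2.16, adjusted p 0.0505 to 0.127). Atrial myosin light chain Myl7 had levels of 7.0, 6.88 and 7.17 in 4F and 9.5, 8.67 and 9.25 in 3F, a difference of -2.12 ± 0.72 (adjusted p = 0.0435). Its call was lost without any of the 6 arrays (differences -2.36 to -1.94, adjusted p 0.0651 to 0.129) and with quantile normalization (-2.02), and its difference was -3.57 with the covariate. The gene called higher was Actn2, sarcomeric actinin (1.04 ± 0.23, adjusted p = 0.00292), named after its value was seen; with quantile normalization (0.98), cyclic loess (0.96), the covariate (0.66) and without 3F replicate 1 (0.9) or 4F replicate 1 (0.89) it was under 2-fold.

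Endothelial and blood progenitor genes differed for the early receptors. Of 20 measured, 3 were called lower and 1 higher (median -0.22), and 6 and 1 without replicate 3. Kdr (Flk1), the VEGF receptor of early mesoderm and endothelium, had levels of 7.07, 7.06 and 9.79 in 4F and 11.66, 10.82 and 11.35 in 3F, with replicate 3 between the groups, and a difference of -3.3 ± 0.47 (adjusted p = 4.27e-05). Flt1, another VEGF receptor, was lower by 1.74 ± 0.3 (adjusted p = 0.000328). Gata2, of blood progenitors, was lower by 1.67 ± 0.29 (adjusted p = 0.000344), under 2-fold with the mean of its probe sets (-0.91). Lmo2, an adaptor needed for blood, had levels of 6.66, 6.72 and 9.41 in 4F and 8.91, 8.52 and 9.57 in 3F and was called lower only without replicate 3 (-2.31, adjusted p = 0.000356; -1.41 ± 0.53, adjusted p = 0.0761 with it), among the leave-one-out fits. Cd34, a sialomucin of progenitors and vessels, was the gene called higher, with levels of 6.51, 6.31 and 5.02 in 4F and 4.62, 3.82 and 4.3 in 3F and a difference of 1.7 ± 0.41 (adjusted p = 0.00519). Of 10 embryonic globin and erythroid genes 0 were called by limma (0 at an unadjusted p under 0.05, 0 with treat). Hbb-bh1, an embryonic globin, had levels of 7.45, 7.08 and 5.99 in 4F and 6.09, 8.89 and 6.58 in 3F, with 3F replicate 2 the highest, and reached 12.64 in R1 replicate 3.

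Definitive endoderm genes were lower in part. Of 15 measured, 6 were called lower and 1 higher (median -1.12), and 7 and 2 without replicate 3. Sox17, the key factor of definitive endoderm and also of endothelium, had levels of 6.6, 6.69 and 8.59 in 4F and 11.38, 10.68 and 10.29 in 3F. The 4F arrays lay below all 3F arrays, with replicate 3 between, and the difference was -3.49 ± 0.43 (adjusted p = 7.27e-06). Foxa1, a pioneer factor of endoderm, had levels of 5.83, 6.3 and 6.2 in 4F and 9.62, 9.04 and 8.4 in 3F, a difference of -2.91 ± 0.39 (adjusted p = 2.1e-05); here replicate 3 lay with the other 4F arrays. Krt19, a simple epithelial keratin, was lower by 2.79 ± 0.43 (adjusted p = 9.09e-05). Foxa2, a pioneer factor of streak and endoderm, had levels of 6.52, 6.74 and 5.92 in 4F and 8.28, 7.51 and 6.73 in 3F and missed the threshold (-1.12 ± 0.39, adjusted p = 0.05; called without 3F replicate 3, -1.51, and under 5 other settings). The gene called higher was Epcam, an adhesion protein of pluripotent and epithelial cells (2.12 ± 0.4, adjusted p = 0.00062; 1.32 with the mean of its probe sets and 1.09 with the covariate).

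Visceral endoderm genes, of the yolk sac lineage, went the other way where they were called. Of 15 measured, 4 were called higher (median 0.1), 3 without replicate 3, but 2 with quantile normalization, cyclic loess or the covariate and without 4F replicate 1 or any one 3F array, and 1 without 4F replicate 2. Amn (amnionless), part of the vitamin B12 receptor, had levels of 9.36, 9.27 and 8.53 in 4F and 7.05, 6.52 and 6.29 in 3F, without overlap, and a difference of 2.44 ± 0.37 (adjusted p = 7.77e-05). Its partner Cubn (cubilin) was higher by 1.8 ± 0.46 (adjusted p = 0.00807, 1.12 with the mean of its probe sets), a call lost without 4F replicate 2 (1.54). Afp, alpha-fetoprotein, had levels of 6.39, 6.56 and 7.04 in 4F and 5.54, 5.62 and 5.5 in 3F. Its difference of 1.11 ± 0.38 (adjusted p = 0.046) lost its call without any one of the 6 arrays (0.92 to 1.25, adjusted p 0.0718 to 0.149), with quantile normalization (1.03), with cyclic loess (1.09) and with the covariate (0.43). Apob, an apolipoprotein, had 1.0 ± 0.32 (adjusted p = 0.0344), and its call was lost without each array other than 4F replicate 3 (0.73 to 1.06, adjusted p 0.0675 to 0.222), and it was under 2-fold with quantile normalization (0.95), cyclic loess (0.92), the mean of its probe sets (0.62) and the covariate (0.44). Ttr, transthyretin, had levels of 8.77, 9.27 and 8.3 in 4F and 7.09, 9.01 and 6.42 in 3F, which overlap, and was not called (1.27 ± 0.7, adjusted p = 0.252), but was called with array weights (1.73) and with the replicate block on only the compared arrays.

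BMP pathway genes were lower in 4F from ligands to targets. Of 22 measured, 11 were called lower (median -0.96), 13 without replicate 3 and 7 with the RNA quality covariate. Among the ligands Bmp4, which patterns ventral mesoderm, had levels of 8.81, 8.55 and 11.32 in 4F and 11.92, 12.19 and 12.38 in 3F, with replicate 3 near 3F, and a difference of -2.6 ± 0.43 (adjusted p = 0.00019). Bmp2 was lower by 3.27 ± 0.49 (adjusted p = 5.9e-05) and Bmp5 by 4.12 ± 0.49 (adjusted p = 4.9e-06, -2.1 with the mean of its probe sets). Smad6, an inhibitory Smad that BMP signals induce, had levels of 6.18, 6.12 and 9.32 in 4F and 11.29, 11.63 and 11.63 in 3F, a difference of -4.31 ± 0.56 (adjusted p = 1.44e-05). Msx2, a homeobox target, was lower by 3.79 ± 0.58 (adjusted p = 8.4e-05, -1.96 with the mean of its probe sets). Bmper, an extracellular modulator, was lower by 3.38 ± 0.77 (adjusted p = 0.00345), a call lost with only the compared arrays fitted and with the covariate (-2.86).

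Nodal pathway genes split. Of 16 measured, 4 were called higher and 4 lower (4 and 6 without replicate 3, 2 and 2 with the covariate). Higher were Gdf3, a TGF-beta family ligand of pluripotent cells (2.93 ± 0.43, adjusted p = 5.13e-05), the feedback inhibitors Lefty1 (2.19 ± 0.37, adjusted p = 0.000242) and Lefty2 (2.09 ± 0.45, adjusted p = 0.00229), and Nodal itself. Nodal had levels of 11.43, 11.43 and 11.47 in 4F and 10.4, 9.46 and 9.54 in 3F, nearly equal within 4F. Its difference of 1.64 ± 0.45 (adjusted p = 0.0133) lost its call without 3F replicate 2 (1.47) or 3F replicate 3 (1.51) and with the covariate (0.57). Lefty2 lost its call with the covariate (1.42). Cfc1 (Cryptic), a Nodal co-receptor, had levels of 8.06, 8.15 and 8.83 in 4F and 10.4, 10.72 and 10.58 in 3F, a difference of -2.22 ± 0.2 (adjusted p = 1.33e-07). Also lower were Foxh1, the DNA-binding partner of Smad2 (-1.67 ± 0.21, adjusted p = 8.65e-06), and, named after their values were seen, Furin, a ligand-processing protease (-1.43 ± 0.27, adjusted p = 0.00071), and Smad3, a signal transducer (-1.43 ± 0.31, adjusted p = 0.0025). The calls of Furin and Smad3 were lost with the covariate (-0.82 and -0.61), and that of Smad3 with the mean of its probe sets (-0.53). Tdgf1 (Cripto), another Nodal co-receptor, had levels of 13.41, 13.2 and 12.96 in 4F and 12.73, 10.52 and 11.41 in 3F, where only 3F replicates 2 and 3 were low, and was not called (1.63 ± 0.65, adjusted p = 0.0922; called without 3F replicate 1, 2.22, with array weights, 1.81, and with the replicate block on only the compared arrays).

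FGF pathway genes split too: of 20 measured 4 were called higher and 3 lower (5 and 4 without replicate 3). Besides Fgf4 and Fgf5, Dusp6, a phosphatase induced by ERK signalling, was higher, with levels of 10.14, 10.13 and 10.14 in 4F and 9.19, 8.35 and 8.64 in 3F and a difference of 1.41 ± 0.29 (adjusted p = 0.0016). Etv4, an ETS factor downstream of FGF and named after its value was seen, was higher by 1.26 ± 0.21 (adjusted p = 0.000251, 0.77 with the mean of its probe sets). Fgf3, a ligand made in the posterior embryo, had levels of 5.89, 6.21 and 9.14 in 4F and 10.38, 10.78 and 11.04 in 3F, a difference of -3.65 ± 0.51 (adjusted p = 3.23e-05). Also lower were the receptors Fgfr2 (-2.28 ± 0.32, adjusted p = 2.91e-05; -1.26 with the mean of its probe sets, which ranged from -2.28 to 0.01) and, named after its value was seen, Fgfr3 (-1.03 ± 0.24, adjusted p = 0.00403). The latter was under 2-fold without 3F replicate 2 (-0.83), with quantile normalization (-0.92), cyclic loess (-0.99), the covariate (-0.76) and the mean of its probe sets (-0.58).

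In the Wnt pathway 4 of 28 genes were called higher and 8 lower (median -0.4), and 6 and 11 without replicate 3. The lower count was 3 without 4F replicate 1, 4 without 4F replicate 2 or 3F replicate 3, 5 without 3F replicate 1 or with the covariate, and 3 with only the compared arrays fitted. Wnt5a, a non-canonical ligand of migrating mesoderm, had levels of 4.83, 5.01 and 9.04 in 4F and 9.88, 10.9 and 10.93 in 3F, a difference of -4.28 ± 0.7 (adjusted p = 0.000159, -2.54 with the mean of its probe sets). Wnt2, a ligand of heart and lung mesoderm, was lower by 1.93 ± 0.42 (adjusted p = 0.00222). Rspo3, a secreted amplifier of Wnt signals, had levels of 6.98, 7.31 and 11.07 in 4F and 11.24, 11.03 and 11.35 in 3F, so that replicate 3 lay inside the 3F range. Its difference of -2.75 ± 0.65 (adjusted p = 0.00454) lost its call without 4F replicate 1 (-2.02) and with only the compared arrays fitted, and was -1.55 with the mean of its probe sets. Those called higher, of which only Sfrp2 is named by rule, were Sfrp2, the related antagonist Sfrp1 (1.41 ± 0.32, adjusted p = 0.00281; 0.87 with the mean of its probe sets), the receptor Fzd5 (1.81 ± 0.43, adjusted p = 0.00495; 1.6 with the covariate, not called) and the ligand Wnt8a (1.33 ± 0.34, adjusted p = 0.0091). The call of Wnt8a was lost without 3F replicate 2 (1.11) and with the covariate (0.79).

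In the Notch pathway 7 of 18 genes were called lower and 1 higher with or without replicate 3 (median 0.03), and 4 were lower with the covariate, with the mean of probe sets and without 3F replicate 1, 4F replicate 1 or 4F replicate 2. Hey2, a repressor of heart and vessels, had levels of 4.6, 4.88 and 5.71 in 4F and 6.9, 8.22 and 7.77 in 3F, without overlap, and a difference of -2.57 ± 0.38 (adjusted p = 6.43e-05). Hes1, a common Notch target, was lower by 1.72 ± 0.25 (adjusted p = 4.52e-05). The gene called higher was the ligand Jag2 (1.03 ± 0.17, adjusted p = 0.000136), named after its value was seen and under 2-fold without 3F replicate 2 (0.95), without 4F replicate 1 (0.98) or with the covariate (0.93).

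Genes of the passage from epithelium to mesenchyme differed on both sides. Of 20 measured, 11 were called lower and 2 higher (median -1.6), 12 and 4 without replicate 3, and 5 and 1 with the covariate. Part of the gap was there at day 0, with 4 called lower and 0 higher (median -0.88). In the change from day 0 to day 5, 7 were called higher in 4F and 1 lower, although the median was -0.6. The genes called higher were Epcam and Cdh1, the epithelial cadherin. Cdh1 had levels of 12.02, 11.87 and 11.06 in 4F and 10.63, 10.06 and 9.68 in 3F, a difference of 1.53 ± 0.37 (adjusted p = 0.00528), and lost its call with the covariate (0.77). Cdh2, the cadherin of mesoderm and neural tissue, had levels of 7.34, 7.54 and 10.11 in 4F and 10.48, 10.26 and 10.69 in 3F, the reverse order with replicate 3 near 3F, and a difference of -2.14 ± 0.47 (adjusted p = 0.00257). It lost its call with the covariate (-1.7) and with only the compared arrays fitted. The simple epithelial keratins, on the lists of trophoblast as well, were lower: Krt8, with levels of 10.0, 9.91 and 12.59 in 4F and 13.94, 14.31 and 14.16 in 3F, by 3.3 ± 0.55 (adjusted p = 0.000207), and Krt18 by 3.11 ± 0.5 (adjusted p = 0.000136). Of 12 trophoblast genes 5 were called lower (6 without replicate 3). Plac1, an X-linked placental gene, had levels of 5.86, 6.47 and 9.63 in 4F and 10.83, 12.43 and 12.57 in 3F, a difference of -4.62 ± 0.66 (adjusted p = 3.92e-05). The other members called were the keratins, Hand1 and Gata3. Gata3, a trophoblast and surface ectoderm factor, had levels of 4.63, 4.81 and 7.99 in 4F and 7.74, 7.38 and 7.74 in 3F, with replicate 3 above 3F. Its difference of -1.81 ± 0.5 (adjusted p = 0.014) lost its call without 3F replicate 3 (-1.75), 4F replicate 1 (-1.22) or 4F replicate 2 (-1.31), with the covariate (-1.6) and with only the compared arrays fitted, and was -2.9 without replicate 3.

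Matrix, smooth muscle and fibroblast genes were lower in part, with counts that moved with the RNA quality covariate. Of 13 parietal endoderm and basement membrane genes 5 were called lower and 1 higher, and 0 lower and 1 higher with the covariate (5 lower and 1 higher at an unadjusted p under 0.05 in the main test). Col4a1, a collagen of basement membranes, was lower by 2.12 ± 0.42 (adjusted p = 0.001), and by 1.29 with the covariate. Srgn, the proteoglycan serglycin, was the gene called higher, with levels of 8.07, 7.94 and 7.21 in 4F and 5.31, 4.99 and 4.95 in 3F and a difference of 2.65 ± 0.44 (adjusted p = 0.000183). Of 12 smooth muscle genes 4 were called lower (2 with the covariate and without 3F replicate 2 or 4F replicate 2). Tagln (SM22), an early smooth muscle protein, had levels of 7.37, 7.55 and 8.6 in 4F and 10.72, 11.37 and 11.13 in 3F, without overlap, and a difference of -3.23 ± 0.38 (adjusted p = 4.47e-06). Acta2, smooth muscle actin, was lower by 2.24 ± 0.6 (adjusted p = 0.0113), with probe sets from -2.24 to 0.18, and lost its call with their mean (-0.76), the covariate (-0.83) and without 3F replicate 2 (-1.79) or 4F replicate 2 (-2.01). Of 17 fibroblast and feeder genes 3 were called lower (median -0.26), but with the covariate 3 were higher and 1 lower and the median was 0.74. At day 0, when the cells were on feeders, the medians were -1.25 for this list and -1.07 for smooth muscle (-0.45 at day 5). The change from day 0 to day 5 had medians of 0.62 and 0.17. For the basement membrane list the day 0 median was -0.25 and that of the change -0.16. Col5a1, a fibrillar collagen, was lower by 2.91 ± 0.51 (adjusted p = 0.000346), or -1.65 with the covariate, and Col1a1 by 2.9 ± 0.63 (adjusted p = 0.00233), or -1.31, not called.

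Imprinted genes, expressed from 1 parental copy and many of them regulators of fetal growth, were lower in 4F. Of 19 measured, 10 were called lower and 1 higher with or without replicate 3 (medians -1.07 and -1.19). Igf2, insulin-like growth factor 2, had levels of 8.02, 8.33 and 11.48 in 4F and 12.78, 13.91 and 13.46 in 3F. Replicate 3 lay between the other two and 3F, nearer to 3F, and the difference was -4.11 ± 0.58 (adjusted p = 3.47e-05), or -2.12 with the mean of its probe sets. Cdkn1c (p57), a cell cycle inhibitor, had levels of 7.81, 7.81 and 9.36 in 4F and 11.19, 11.78 and 11.54 in 3F, a difference of -3.17 ± 0.38 (adjusted p = 6.43e-06). Mest had levels of 10.28, 10.29 and 11.2 in 4F and 13.17, 13.67 and 13.59 in 3F, with replicate 3 close to its group, and was lower by 2.89 ± 0.25 (adjusted p = 9.25e-08). Grb10, a growth-restraining adaptor, was lower by 2.61 ± 0.31 (adjusted p = 4.9e-06, -1.05 with the mean of its probe sets), and Phlda2, a placental growth inhibitor, by 2.37 ± 0.43 (adjusted p = 0.000485). The member called higher was Plagl1 (Zac1), a zinc-finger factor named after its value was seen (1.78 ± 0.35, adjusted p = 0.000921), whose probe sets ranged from -0.05 to 1.78 with a mean of 0.67.

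Among 25 Hox and Cdx genes, which set position along the body axis, 5 were called lower (median -0.43), 8 without replicate 3 and 1 with the covariate. The count was 2 without 4F replicate 1, 4F replicate 2 or 3F replicate 3 and 3 without 3F replicate 2, and 2 with only the compared arrays fitted. Hoxd1 had levels of 4.77, 5.57 and 7.2 in 4F and 7.69, 8.67 and 8.68 in 3F, without overlap, and a difference of -2.5 ± 0.47 (adjusted p = 0.000699). Hoxb1, of the early posterior embryo and hindbrain, had levels of 6.64, 6.25 and 11.25 in 4F and 10.17, 9.6 and 11.1 in 3F, where replicate 3 was above every 3F array, and a difference of -2.24 ± 0.74 (adjusted p = 0.0386). Its call was lost without 3F replicate 1 (-2.3), 3F replicate 3 (-1.84), 4F replicate 1 (-1.54) or 4F replicate 2 (-1.34), with the covariate (-2.63), with quantile normalization (-2.15) and with only the compared arrays fitted, and it was -3.85 without replicate 3. Hoxb2 was lower by 2.23 ± 0.45 (adjusted p = 0.00129, -1.61 with the covariate, not called). Hoxb6 (-2.56 ± 0.78, adjusted p = 0.0252) and, named after its value was seen, Hoxd9 (-1.49 ± 0.48, adjusted p = 0.0326) lost their calls without 3F replicate 2, 3F replicate 3, 4F replicate 1 or 4F replicate 2, with the covariate and with only the compared arrays fitted (adjusted p 0.0775 to 0.458).

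In the paraxial mesoderm list 3 of 14 were called lower and 1 higher. Cyp26a1, the enzyme that degrades retinoic acid in the tail bud, had levels of 7.86, 7.82 and 10.56 in 4F and 12.65, 11.59 and 12.26 in 3F, a difference of -3.42 ± 0.58 (adjusted p = 0.000242). Tcf15 (paraxis), a factor of somites and also of primed epiblast cells, was the one called higher. Its levels were 10.73, 10.69 and 9.27 in 4F and 7.95, 7.61 and 7.7 in 3F, a difference of 2.47 ± 0.3 (adjusted p = 7.27e-06). Besides Rspo3 the third gene called lower was Dkk1, a secreted Wnt inhibitor, with levels of 5.88, 6.08 and 10.39 in 4F and 9.83, 9.58 and 10.17 in 3F, replicate 3 above every 3F array, and a difference of -2.41 ± 0.72 (adjusted p = 0.0218). Its call was lost without 3F replicate 1 (-2.42), 3F replicate 3 (-2.26), 4F replicate 1 (-1.62) or 4F replicate 2 (-1.73) and with only the compared arrays fitted, and it was -3.88 without replicate 3. The lower count was 1 without 4F replicate 1 or with only the compared arrays fitted. Of 16 neuroectoderm genes 1 was called higher and 2 lower (1 and 0 with the covariate). Sox3, a SoxB1 factor of epiblast and neural plate, had levels of 9.24, 9.13 and 7.32 in 4F and 6.86, 6.83 and 6.83 in 3F, a difference of 1.73 ± 0.33 (adjusted p = 0.000723, 0.95 with the mean of its probe sets). The lower calls were Hoxb1 and Ncam1. Ncam1, a neural adhesion molecule, had -1.56 ± 0.38 (adjusted p = 0.00588), lost without 4F replicate 2 (-1.27), with the covariate (-0.65) and with the mean of its probe sets (-0.35).

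Of 20 cell cycle genes 2 were called lower (with the covariate 1, another cyclin, Ccne2), of 13 p53 targets 0 and of 18 glycolysis and hypoxia genes 4 in either direction, where 7.48% of all genes were called. The cell cycle genes called were the D cyclins Ccnd1 (-1.0 ± 0.3, adjusted p = 0.024) and Ccnd2 (-1.3 ± 0.43, adjusted p = 0.0388). Both calls were lost without 3F replicate 2, 3F replicate 3, 4F replicate 1 or 4F replicate 2, and that of Ccnd2 without 3F replicate 1 as well, with adjusted p of 0.0657 to 0.287 and differences of -1.41 to -0.83; without 4F replicate 3 Ccnd2 was -2.11. The mean of their probe sets gave -0.46 and -1.07, and the covariate -0.67 and -0.81, none called. Ccnd1, at the 2-fold limit, was also under it with median centring (-0.97), quantile normalization (-0.9) and cyclic loess (-0.95), and Ccnd2 was not called with only the compared arrays fitted. Ccne1, cyclin E, had levels of 13.59, 13.46 and 13.06 in 4F and 12.78, 12.21 and 12.36 in 3F, all 4F arrays above 3F. The difference of 0.92 ± 0.25 (adjusted p = 0.0108) was just under 2-fold, and it was called without 3F replicate 1 (1.09) or 4F replicate 3 (1.08) and with the mean of its probe sets (1.1). The count of 0 p53 targets was limma's (5 higher at an unadjusted p under 0.05, 0 with treat), and 2 were higher with the covariate. Of the glycolysis and hypoxia genes 3 were called lower and 1 higher (4 and 2 without replicate 3, 1 and 2 with the covariate). Ndrg1, a hypoxia-induced gene, had levels of 9.15, 8.34 and 9.98 in 4F and 11.14, 11.32 and 11.16 in 3F, a difference of -2.05 ± 0.36 (adjusted p = 0.000344, -1.32 with the covariate). Pdk1, which holds pyruvate back from oxidation in the mitochondria, was higher by 1.33 ± 0.2 (adjusted p = 7.03e-05), under 2-fold with the mean of its probe sets (0.94; range -0.09 to 1.6). Of 4 genes of the two-cell-like state 0 were called by limma (1 lower at an unadjusted p under 0.05, and 1 with treat, Tcstv3, -0.87 ± 0.15, adjusted p = 0.000254; it was called without 3F replicate 2, -1.08).

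Most genes called at day 5 were not called before differentiation, which does not by itself show a change between the days. At day 0, 360 genes were called between the lines (1.98%), on arrays not shared with day 5, and the lines' arrays did not overlap for 31.9% of genes. The count was 196 without 3F replicate 3 of day 0 and 192 without 4F replicate 2, and the 199 lower calls among the 360 became 86 and 82, or 120 without 3F replicate 1 and 123 without 4F replicate 3. Of the 529 genes higher at day 5, 65 were called the same way at day 0 (12.3%, where 0.885% of all genes were called higher) and 15 the opposite way. Of the 831 lower, 63 were called the same way (7.6%, where 1.09% of all genes were lower) and 5 the opposite way. The median difference of the higher genes was 0.31 at day 0 and that of the lower genes -0.51. The day 0 arrays did not enter the day 5 differences, but they did enter the pooled spread and the choice of probe set. When the change between days 0 and 5 was compared across lines, 632 genes were called (3.47%). Of the day 5 arrays, leaving out 4F replicate 1 gave 337, 4F replicate 2 gave 341, 3F replicate 3 gave 379, 3F replicate 2 gave 407 and 4F replicate 3 gave 1058. Among the 529 genes higher at day 5, 207 were called higher in this test (39.1%, against 1.97% of all genes) and 0 lower. Among the 831 lower, 196 were called lower (23.6%, against 1.51%) and 1 higher. The other day 5 calls were not shown to differ in change, and day 5 values enter both tests. Zfp42 was among those called higher. Its levels at day 0 were 13.92, 14.11 and 13.93 in 4F and 13.58, 13.6 and 13.39 in 3F, and the difference in change was 3.59 ± 0.67 (adjusted p = 0.00279). Fgf5 was lower in 4F at day 0 (5.67, 5.91 and 6.37 against 8.6, 8.45 and 8.66; -2.59 ± 0.67, adjusted p = 0.0281) and higher at day 5, and the difference in change was 5.05 ± 0.95 (adjusted p = 0.00308). Sox17 ran the opposite way, higher in 4F at day 0 (6.35, 6.69 and 6.98 against 4.4, 4.83 and 4.56; 2.08 ± 0.43, adjusted p = 0.00554), and the difference in change was -5.56 ± 0.6 (adjusted p = 1.34e-05).

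**Figure D4:**
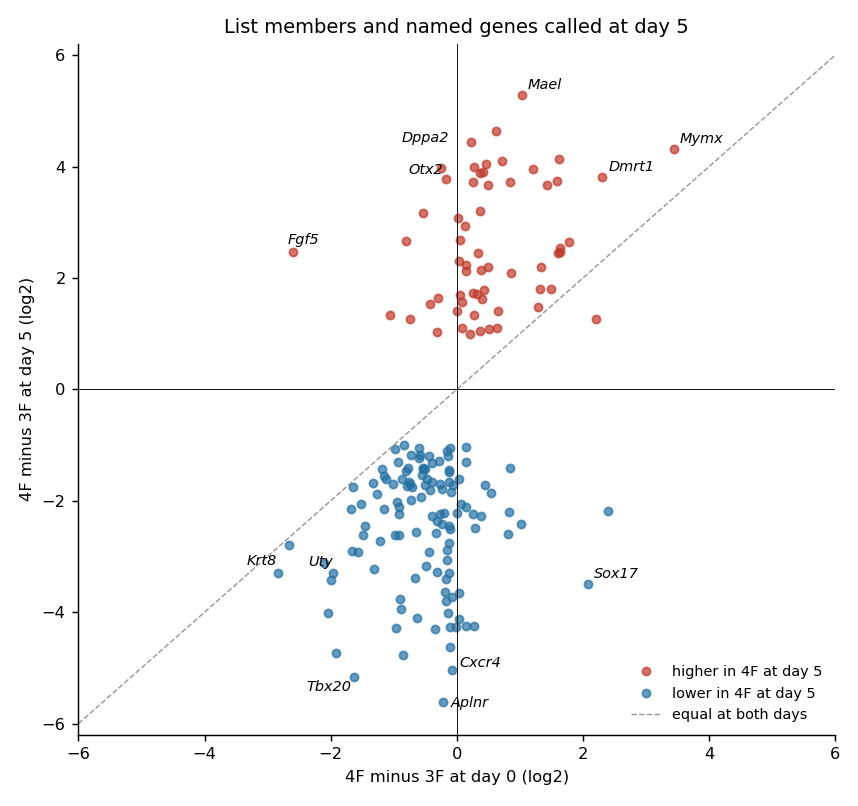
Difference 4F minus 3F at day 0 (horizontal axis, log2) against day 5 (vertical axis, log2) for list members and named genes called at day 5, with higher genes in red, lower genes in blue and the dashed line marking equal differences. Most points lie near 0 on the day 0 axis, such as Dppa2 (0.23) and Aplnr (-0.22), while Mymx (3.44) lies close to the dashed line, and Fgf5 (-2.59) and Sox17 (2.08) changed side.

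A smaller group of genes differed at every day. Genes called the same way at day 0 and day 11 numbered 102, 52 higher and 50 lower in 4F. Of these, 34 and 26 were also called in that direction at day 5, and 2 and 1 in the opposite one. Mymx (myomixer), a muscle fusion micropeptide, had levels of 10.38, 10.38 and 10.2 in 4F and 6.18, 5.81 and 6.01 in 3F at day 5. Its levels were 12.47, 12.68 and 12.66 against 9.54, 9.49 and 8.46 at day 0, and 9.32, 10.12 and 8.99 against 6.39, 5.19 and 5.72 at day 11. The lines did not overlap on any day, and the difference at day 5 was 4.32 ± 0.42 (adjusted p = 3.99e-07). Of 4 sex-linked genes measured 2 were called lower and 1 higher, and the Y-linked Eif2s3y and Uty were among the genes called on all 3 days. Kdm5d, also Y-linked, was not called on any day, with day 5 levels of 4.39 to 4.59 in 4F and 4.39 to 4.52 in 3F and a difference of 0.05 ± 0.1 (adjusted p = 0.827). Eif2s3y, a Y-linked translation factor subunit, had levels of 6.03, 5.22 and 8.03 in 4F and 10.38, 10.46 and 10.5 in 3F at day 5, and 9.61, 9.04 and 9.08 against 11.26, 11.32 and 11.27 at day 0. At day 11 they were 6.41, 5.78 and 8.63 against 9.16, 10.67 and 9.94. Its day 5 difference was -4.02 ± 0.56 (adjusted p = 3.02e-05, -2.1 with the mean of its probe sets), with replicate 3 the highest 4F array. Uty, the other Y-linked gene called, had levels of 4.33, 3.85 and 5.01 in 4F and 7.71, 7.56 and 7.8 in 3F and was lower by 3.29 ± 0.37 (adjusted p = 3.18e-06, -1.24 with the mean of its probe sets). Xist, the RNA of X inactivation, was higher by 1.08 ± 0.3 (adjusted p = 0.0152) on its brightest probe set, but its probe sets ranged from -0.06 to 1.08. Their mean ended the call (0.36), as did the covariate (0.6) and leaving out 3F replicate 2 (1.07), 4F replicate 1 (0.98) or 4F replicate 2 (1.02).

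At day 11 pluripotency and germ line genes were again called higher in 4F, and 1 of 22 BMP genes was called. On arrays not shared with day 5, 1824 genes were called at day 11 (10.0%), 931 higher and 893 lower, and 29.6% did not overlap. The calls came to 840 with only the compared arrays fitted (406 higher and 434 lower) and to 1105 with the RNA quality covariate, where 320 were lower, and the higher count was 564 without 3F replicate 1 of day 11. Of the 529 genes higher at day 5, 204 were called higher at day 11 (38.6%, where 5.12% of all genes were called higher), and of the 831 lower, 235 were called lower (28.3%, where 4.91% of all genes were). Of the pluripotency list 16 of 25 were higher at day 11 and of the germ line list 7 of 16. Mael had levels of 8.16, 8.54 and 7.93 in 4F and 3.6, 4.1 and 3.8 in 3F (4.38 ± 0.33, adjusted p = 4.93e-09). The BMP gene was lower, and Bmp4 had a difference of 0.33 ± 0.43 (adjusted p = 0.586). Igf2 reached 14.1, 14.06 and 14.41 in 4F and 14.21, 14.61 and 14.77 in 3F, with a difference of -0.34 ± 0.58 (adjusted p = 0.681). Called lower at day 11 were 12 of 31 contractile genes, 5 of 10 erythroid genes, 8 of 20 endothelial and blood progenitor genes, 5 of 12 smooth muscle genes and 12 of 17 fibroblast and feeder genes. The fibroblast and feeder list had mean levels of 8.85 to 10.21 in 4F and 10.65 to 11.51 in 3F at that day, and its part in the other lists was not tested. Tbx2 had changed side: it was 1.19 ± 0.4 (adjusted p = 0.0283) at day 11, with levels of 7.88, 8.01 and 7.84 against 5.99, 6.9 and 7.29. The RNA quality index at day 11 was 2.69 ± 0.23 in 4F and 1.55 ± 0.23 in 3F (SD, n = 3 each); its part in these values was not tested.

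**Figure D5:**
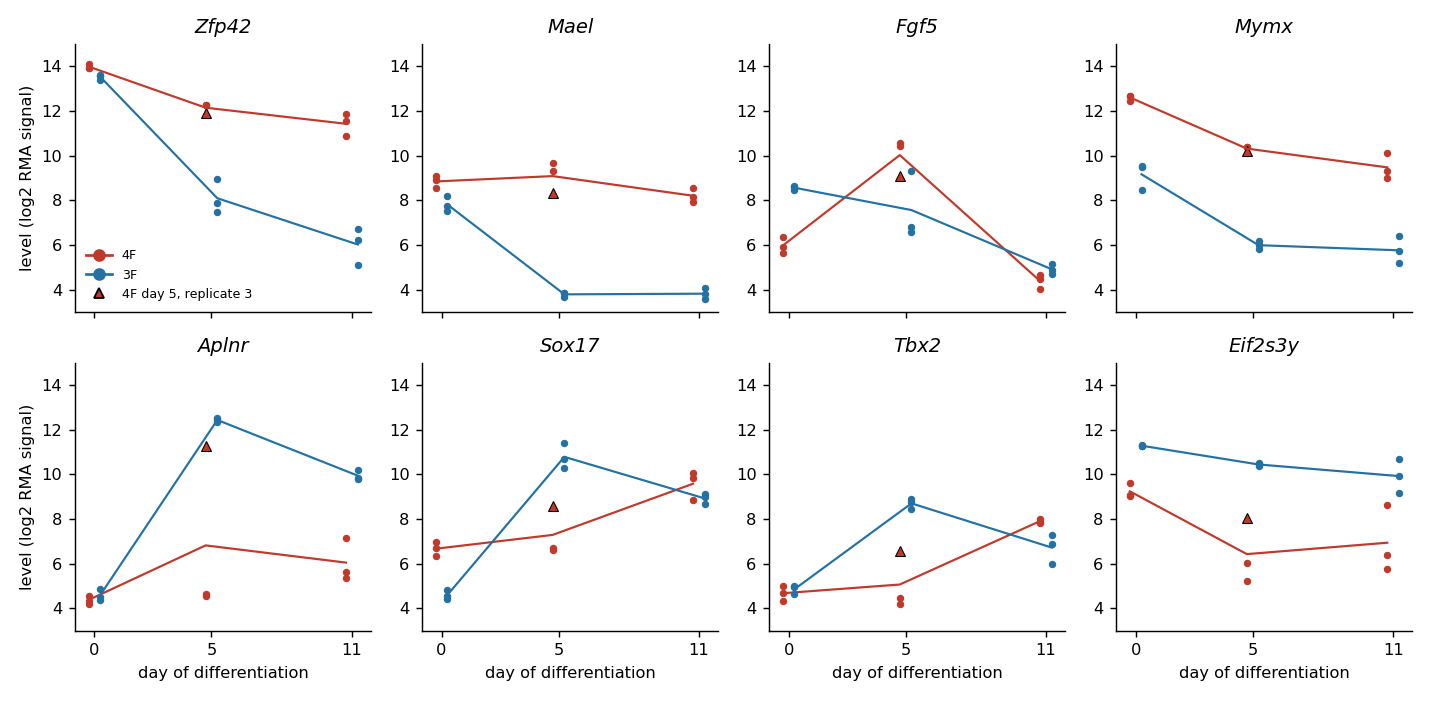
Levels (log2 RMA signal, vertical axis) of 8 genes at days 0, 5 and 11 (horizontal axis) in 4F (red) and 3F (blue); points are arrays, lines join group means, and the triangle is 4F replicate 3 at day 5. Zfp42 and Mael were lower in 3F than in 4F at days 5 and 11, Aplnr was high in the 3F arrays and in the triangle at day 5, and Mymx and Eif2s3y were apart at all days.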

How the data were processed

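The deposited table holds log2 expression values for 45101 probe sets of an Affymetrix mouse array in 27 samples, made by the authors with RMA (robust multi-array average, which corrects background, normalizes and sums probes), per the submitters' processing notes, which give no version. The lowest value was 3.0 and the highest 15.67, medians of single arrays lay between 5.91 and 6.1, and no further normalization was applied. Arrays give no read depth, and their number limits the precision. Of the probe sets, 34945 carried 1 symbol in the platform annotation, 932 several and 9160 none. The brightest probe set over all arrays stood for each of 18193 genes; 9010 genes had several.

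Means of the 9 groups were fitted with limma 3.58.1 in R 4.3.3 (lmFit and eBayes, 18 residual degrees of freedom), with Benjamini-Hochberg adjustment over all genes. On simulated data for the day 5 comparison, 46 of 50 genes shifted by a log2 change of 1.25 were called, 48 of 50 at 1.5, 48 of 50 at 2 and 50 of 50 at 3, as were 4 of 17993 unchanged genes. The simulated noise was normal and independent between genes and arrays, with the same SD for a gene in every group. It held no array that stood apart like 4F replicate 3, so these counts do not give error rates for the real arrays. Gene lists and members were chosen with earlier results of these data known. Named genes were the 15 largest differences each way without overlap, up to 5 of each list by size, and landmark genes; 42 provisional names were passed over. Alternatives were median centring, quantile and cyclic loess normalization, dim genes left out, probe set means, only the compared arrays, trend and robust options, array weights, a replicate block, the RNA quality index, treat against a 1.2-fold change, a threshold of 0.01 and each array left out. Promoters came from the RefSeq table of GRCm38.p6.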

Additional observations from a re-analysis of the deposited data

Results flagged for a closer look

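The change from day 0 to day 5 differed between the lines by limma's test of the difference itself (adjusted p under 0.05, 2-fold or more) for 35 of 67 genes looked at, against 3.47% of all genes. Of the 67, the 30 largest day 5 differences (25 called) were chosen on day 5 values that enter this test, and the other 37 (10 called) are landmark genes chosen with earlier results known, so the counts are a description, with the values given as the 4F change minus the 3F change on the log2 scale. Among genes of pluripotency, epiblast and germ line these were Mael (4.26), Nr0b1 (4.01), Dppa2 (4.21), Zfp42 (3.59), Fgf4 (3.46), Otx2 (3.94), Fgf5 (5.05), Cdh1 (1.96), Ddx4 (3.49) and Meioc (2.75). Mcf2 (2.52), Trap1a (3.39), Mageb16 (3.73), Ugt8a (4.21) and Zfp936 (3.52) had positive values as well. Genes of mesoderm, heart and endoderm with negative values were Aplnr (-5.39), Cxcr4 (-4.96), Kdr (-3.17), Tbx20 (-3.54), Hand1 (-2.17), Hand2 (-3.66), Gata4 (-2.77), Gata6 (-2.41), Tnnc1 (-4.51) and Sox17 (-5.56). The signalling and growth genes Bmp4 (-3.41), Bmp5 (-4.16), Smad6 (-3.97) and Igf2 (-3.48) were negative too, as were Pmp22 (-3.9), Plac1 (-4.52), Tdo2 (-4.24), Capn6 (-4.15), Stard8 (-4.38) and Colec11 (-3.88).

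Among the 179 named genes, 5 further ones were called at day 5 and called in the opposite direction at day 11. The choice of these genes required that the lines' arrays did not overlap at day 5 or at day 11. Their separation on both days is therefore a condition of the choice and not a result. Over all genes, 17 of the 529 called higher at day 5 were called lower at day 11. Of the 831 called lower, 19 were called higher. The lines' arrays did not overlap for 45.4% of all genes at day 5 and 29.6% at day 11. The day 11 differences were 1.19 for Tbx2, 1.21 for Notch3, 1.04 for Vegfa, -3.19 for Cd34 and -1.34 for Afp, each opposite in sign to day 5, and the difference between days was not tested.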

How the results depend on the processing

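Of 179 named genes 131 were called, 85 of them under every alternative and 105 without each single array; 98 were called with the RNA quality index as covariate. None of these 131 called genes changed direction under the alternatives run, and the other called genes were not checked for this. The 1360 calls at day 5 ranged from 1006 to 1797 when single arrays were left out, the 529 higher from 406 to 698 and the 831 lower from 600 to 1099. The lower count was 524 with the mean of probe sets and 498 with the covariate. The 632 calls on the change from day 0 to day 5 became 964 with only the compared arrays fitted, 1482 with array weights, 988 with the replicate block and only the compared arrays, 370 with treat and 281 at an adjusted p under 0.01, and ranged from 337 to 1058 without single arrays. Its 358 higher calls were 570, 779, 580, 203 and 154 under those 5 settings (186 to 535 without single arrays), and its 274 lower calls 703 with array weights, 167 with treat and 127 at 0.01 (147 to 523). The 360 calls at day 0 became 615 with array weights, 553 with the replicate block and only the compared arrays, 228 with treat and 217 at 0.01, with a range of 192 to 461 without single arrays. Its 199 lower calls were 347 with only the compared arrays, 428 with array weights, 362 with the block and only the compared arrays, 100 with treat and 101 at 0.01 (82 to 291 without single arrays). The 1824 calls at day 11 became 840 with only the compared arrays and 1105 with the covariate, with a range of 1477 to 2360 without single arrays. Its 931 higher calls were 406 with only the compared arrays and 617 with the block added (564 to 1325 without single arrays), and its 893 lower calls 434 with only the compared arrays and 320 with the covariate. Without 4F replicate 3 and with only the compared arrays, chosen after seeing the data, day 5 had 1870 calls, 728 higher and 1142 lower. The cause of these shifts was not tested.

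Replicate numbers are shared between the lines. Same-numbered arrays at day 5 had deviations from their group means correlated at 0.058, 0.029 and 0.205, so the numbers were not taken to pair samples, and not every array correlated best with its own number. With the replicate block day 5 had 1384 calls (1367 with only the compared arrays), the change from day 0 to day 5 had 741, day 0 had 412 and day 11 had 1838.

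Genes that were not called changed sign as follows. With the covariate the differences were 0.15 for Tubb3, 0.35 for Col6a1, 0.74 for Postn, -0.03 for Cd68, -0.34 for Tyrobp, -0.05 for Kdm5d and 0.24 for Mef2c. Leaving out single arrays gave ranges that crossed 0 for Hbb-y (-1.42 to 0.11), Hbb-bh1 (-0.9 to 0.51), Usp17la (-0.11 to 0.07), Kdm5d (-0.00 to 0.1), Eomes (-0.94 to 0.03), Gsc (-0.87 to 0.23), Nkx2-5 (-0.16 to 0.06) and Mef2c (-0.22 to 0.00). Without 4F replicate 3 and with only the compared arrays, Hbb-bh1 was 0.08, Nkx2-5 0.02 and Kdm5d -0.00. Kdm5d was -0.01 with quantile normalization, -0.02 with cyclic loess and -0.08 with the mean of probe sets. Nkx2-5 was 0.00 with median centring and 0.08 with array weights, under which Hbb-bh1 was 0.01.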
